A study of Mus musculus with 6 samples.

Results

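Immunoglobulin variable and joining segments are the gene pieces from which B cells assemble the antigen-binding end of an antibody chain. The members were the rows of the count table whose symbols are those of a numbered variable, diversity or joining segment of the heavy (Igh), kappa (Igk) or lambda (Igl) locus, 205 of 29753 rows. They comprised 87 Ighv and 4 Ighj segments on chromosome 12, 102 Igkv and 5 Igkj segments on chromosome 6, and 3 Iglv and 4 Iglj segments on chromosome 16, in the build GRCm38. The GENCODE annotation of that build lists 380 such segments. None of the 20 heavy diversity segments among them had a row among those used. Of the 183 Ighv and 160 Igkv segments annotated, only the 87 and 102 above had one. Of the 205, 188 were annotated as functional and 17 as pseudogenes. A count was present in all 6 libraries for 95 segments and in a single library for 19.

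The libraries came from lungs of mice of the balb/c strain, taken at D0 (day 0) or D14 (day 14) counted from the orthotopic implantation of K7M2, an osteosarcoma line from the mouse, with 3 libraries a day. The labels give no further genotype, sex or age. Both groups are labelled by days from implantation and no group without cells was analysed at D14, so tumour, procedure, age and day of collection cannot be told apart. The protocol for extraction speaks of bone marrow-derived macrophages (BMDMs), whereas tissue and titles say lungs, and the 5 lung epithelium markers reached a sum of 32865 to 61755 CPM in every library, where CPM is a count divided by the scaled size of its library. Library totals ran from 14878101 to 17385006 counts, at which 3 counts, the limit set by a count of 0, equal 0.174 to 0.210 CPM. D0 replicate 3 stood apart from the other libraries: it lay at 82.8 on the first principal component (42.6% of variance) and the others between -41.5 and 15.7. It also held the highest red cell marker sum, 52340 CPM against 9216 to 28845 CPM elsewhere. Labels call the libraries biological replicates, but do not say which animals they came from, so p-values speak only to the spread among these libraries, which may be technical.

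In a developing B cell the RAG recombinase joins one variable, one diversity and one joining segment of the heavy locus, and one variable and one joining segment of a light chain locus. The joined exon is spliced to a constant region, which sets the antibody class. Each B cell clone therefore transcribes essentially one rearranged heavy and one rearranged light chain, and plasma cells transcribe theirs at a very high level. The segments of a bulk tissue thus reflect the mixture of B cells and plasma cells in it, and fewer such cells cannot be told apart from less RNA per cell.

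Many variable segments are close copies, which bears on every count below. Among the 192 variable segments, the last 300 bases of the exon matched the nearest annotated segment of the same locus with a median identity of 95.3%. For 104 of them the nearest was at least 95% identical, and 2, Ighv1-62-2 and Ighv1-71, were identical to another annotated segment. Reads from such copies could be divided between them by the counting. The annotation is that of the GRCm38 reference strain, while the mice were balb/c, so alleles can also differ from the sequences counted against.

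The most abundant segment, Iglv1, and the segment nearest to it in sequence, Iglv2, are shown because they differ at 8 of 300 bases (97.3% identity), and capitals mark the bases that differ. Iglv1 is at chr16:19085017-19085316 and Iglv2 at chr16:19260401-19260700, both on the minus strand and in the variable exon.
Iglv1: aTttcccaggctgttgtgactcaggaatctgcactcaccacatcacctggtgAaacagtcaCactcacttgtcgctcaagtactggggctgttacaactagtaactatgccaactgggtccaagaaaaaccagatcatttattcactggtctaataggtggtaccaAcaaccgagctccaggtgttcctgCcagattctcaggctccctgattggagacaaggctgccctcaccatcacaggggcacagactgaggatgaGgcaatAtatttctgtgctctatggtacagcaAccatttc
Iglv2: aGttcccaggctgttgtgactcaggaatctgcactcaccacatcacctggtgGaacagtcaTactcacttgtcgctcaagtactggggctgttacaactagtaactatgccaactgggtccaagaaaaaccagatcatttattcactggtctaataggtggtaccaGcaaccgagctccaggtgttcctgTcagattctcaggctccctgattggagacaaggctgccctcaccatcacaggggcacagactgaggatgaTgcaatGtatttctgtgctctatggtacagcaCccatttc

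Igkv12-89 is shown because most of its counts came from a single library, and beside it stands the segment nearest in sequence, Igkv12-46. They differ at 42 of 298 bases (85.9% identity), marked in capitals. Their stretches are chr6:68834846-68835143 and chr6:69764523-69764820, both on the minus strand.
Igkv12-89: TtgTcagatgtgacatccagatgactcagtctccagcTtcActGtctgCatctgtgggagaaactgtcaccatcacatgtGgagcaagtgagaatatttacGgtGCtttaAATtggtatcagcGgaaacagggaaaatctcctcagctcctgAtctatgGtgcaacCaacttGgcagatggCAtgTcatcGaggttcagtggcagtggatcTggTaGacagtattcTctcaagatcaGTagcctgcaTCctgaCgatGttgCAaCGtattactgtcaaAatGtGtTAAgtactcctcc
Igkv12-46: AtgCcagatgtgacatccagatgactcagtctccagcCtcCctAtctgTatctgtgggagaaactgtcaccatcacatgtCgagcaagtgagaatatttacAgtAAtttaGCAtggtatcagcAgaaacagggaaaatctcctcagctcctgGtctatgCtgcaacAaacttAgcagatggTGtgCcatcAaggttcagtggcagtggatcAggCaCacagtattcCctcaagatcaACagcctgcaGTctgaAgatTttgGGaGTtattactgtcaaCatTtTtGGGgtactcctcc

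Ighv1-73, a heavy segment annotated as a pseudogene, is shown for the same reason beside its nearest segment, Ighv1-63. The stretches are chr12:115790593-115790892 and chr12:115495625-115495924 on the minus strand, and they differ at 11 aligned positions, 4 of them gaps (96.3% identity).
Ighv1-73: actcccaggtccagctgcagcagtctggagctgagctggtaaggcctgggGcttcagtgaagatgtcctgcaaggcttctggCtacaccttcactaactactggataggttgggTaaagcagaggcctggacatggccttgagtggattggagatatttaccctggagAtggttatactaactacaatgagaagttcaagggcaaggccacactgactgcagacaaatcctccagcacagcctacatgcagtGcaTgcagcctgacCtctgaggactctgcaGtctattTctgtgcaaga
Ighv1-63: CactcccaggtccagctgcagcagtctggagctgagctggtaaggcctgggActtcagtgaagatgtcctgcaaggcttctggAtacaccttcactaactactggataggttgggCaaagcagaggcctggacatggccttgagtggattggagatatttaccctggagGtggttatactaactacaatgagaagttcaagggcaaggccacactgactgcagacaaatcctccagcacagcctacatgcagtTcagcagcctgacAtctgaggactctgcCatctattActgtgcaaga

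Joining segments are short and carry the conserved aromatic and glycine residues that close the variable domain. Capitals mark matches to TTCGG in light chain and TGGGG in heavy chain segments, in each case followed by 4 bases of any kind and GGNAC, searched on both strands. The first motif was found in 7 of the 13 joining segments and the second in 4, while Igkj3 and Iglj3p held neither. Of 141647 transcript-end windows of 54 bases in the annotation, 0.0607% held either motif. The segments shown are the joining segment with the most counts in each locus (for kappa, tied with Igkj2) and one without a match. They lie at chr16:19200198-19200235 (Iglj2, minus strand), chr6:70723886-70723923 (Igkj5, plus strand), chr12:113428514-113428567 (Ighj4, minus strand) and chr6:70723223-70723260 (Igkj3, plus strand).
Iglj2: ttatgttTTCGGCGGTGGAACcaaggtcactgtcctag
Igkj5: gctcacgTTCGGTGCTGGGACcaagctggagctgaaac
Ighj4: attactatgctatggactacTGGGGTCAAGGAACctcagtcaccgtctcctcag
Igkj3: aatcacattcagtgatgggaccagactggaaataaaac

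Segment transcripts were a small part of the lung libraries at both days, and the days overlapped. The 205 segments together had 2035, 1095 and 3401 counts in D0 replicates 1 to 3 and 1254, 1699 and 2774 in D14 replicates 1 to 3, which is 0.00721% to 0.0229% of a library. In CPM this was 118, 69.8 and 238 on D0 against 72.5, 108 and 177 at D14, with means of 142 ± 86.8 and 119 ± 53.4 (SD, n = 3). D0 replicate 3 was the highest and D0 replicate 2 the lowest library, so D0 spanned the whole D14 range. The difference of mean log2 CPM, D14 minus D0, was -0.17 (exact permutation test, two-sided, p = 0.8, adjusted p = 1 over 11 single values). With 3 libraries against 3 the smallest p is 0.1. Without D0 replicate 3 the difference was 0.30, and without D14 replicate 1 it was 0.15.

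Kappa segments, which serve the main mouse light chain, held most of the counts. Their sums were 85.7, 49.2 and 178 CPM on D0 against 51.2, 66.8 and 109 CPM at D14 (104 ± 66.6 and 75.8 ± 30.1, SD, n = 3), a log2 difference of -0.34 (exact permutation p = 0.7, adjusted p = 1). Heavy segments gave 23.8, 14.3 and 35.2 CPM on D0 against 15.0, 32.5 and 47.2 CPM at D14, a log2 difference of 0.31 (exact permutation p = 0.7, adjusted p = 1). Lambda segments gave 8.53, 6.38 and 24.7 CPM on D0 against 6.25, 8.91 and 20.9 CPM at D14, a log2 difference of -0.07 (exact permutation p = 0.9, adjusted p = 1). In each locus the ranges of the days overlapped. The sign changed in all 3 loci when a library was left out: kappa was 0.15 and lambda 0.51 without D0 replicate 3, lambda was 0.31 and 0.05 without D14 replicates 1 and 2, and heavy was -0.025 without D0 replicate 2 and -0.050 without D14 replicate 3.

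**Figure D1:**
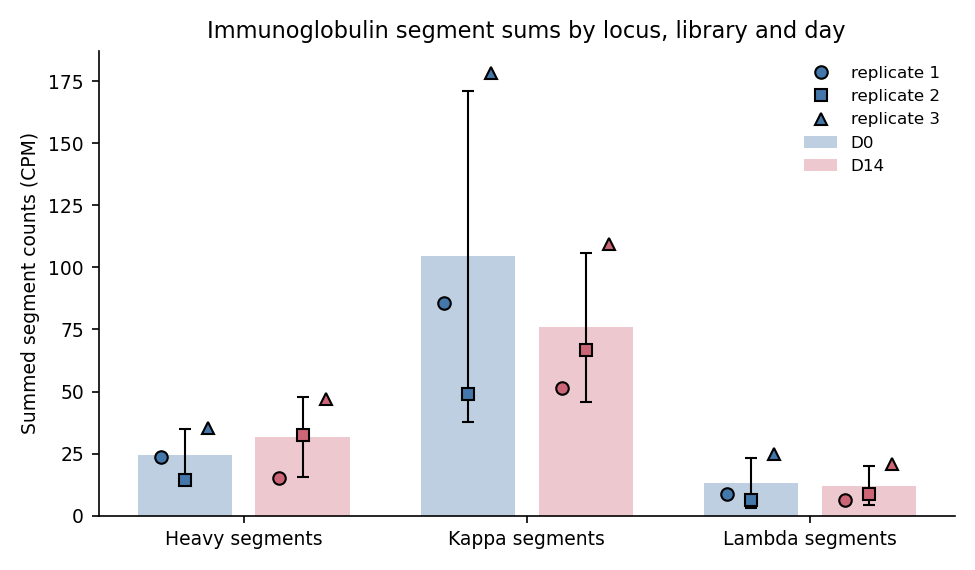
Summed CPM of heavy, kappa and lambda segments on D0 and D14. Bars are means, error bars the SD (n = 3) and markers the replicates. The libraries of each day overlap in every locus, and D0 replicate 3 is the highest kappa library at 178 CPM.

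Heavy segments were a larger part of the segment counts in each D14 library than in any D0 library. They took 20.1%, 20.5% and 14.8% of all segment counts on D0 against 20.7%, 30.02% and 26.6% at D14, means of 18.5% ± 3.19 and 25.8% ± 4.69 (SD, n = 3). The ranges did not overlap, but D0 replicate 2 (224 of 1095 counts) and D14 replicate 1 (260 of 1254) lay close. The counting error of these shares was not computed. The difference of the mean shares was 7.31 percentage points (exact permutation p = 0.1, the smallest possible, adjusted p = 0.55). This quantity was chosen after its values were seen. Against heavy constant region counts, heavy segment counts gave ratios of 0.0749, 0.0762 and 0.0587 on D0 against 0.0797, 0.0994 and 0.110 at D14 (log2 difference 0.46, exact permutation p = 0.1, adjusted p = 0.55), also chosen after its values were seen. Lambda segments took 9.05%, 11.5% and 12.1% of light chain segment counts on D0 against 10.9%, 11.8% and 16.1% at D14 (exact permutation p = 0.5, adjusted p = 1).

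By effective number, counts were spread over the fewest segments in D0 replicate 3 and the next fewest in D14 replicate 3. The effective number of segments is the inverse of the summed squared shares, so it equals the number of segments when all are equal. For kappa it was 46.2, 43.8 and 24.1 on D0 against 44.2, 41.3 and 33.8 at D14 (difference 1.73, exact permutation p = 0.9, adjusted p = 1). For heavy it was 34.1, 35.8 and 15.2 on D0 against 33.4, 31.9 and 28.7 at D14 (difference 2.97, exact permutation p = 1, adjusted p = 1). D0 replicate 3 was the lowest library in both loci, and without it the differences were -5.27 for kappa and -3.62 for heavy. In that library 10 kappa segments made up 50% of the kappa counts, against 12 to 18 in the others, and 7 heavy segments against 12 to 15. Leaving Igkv12-89 out raised its kappa number to 30.2, beside 33.6 in D14 replicate 3. Leaving Ighv1-73 out raised its heavy number to 23.3, beside 28.1 in D14 replicate 3.

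**Figure D2:**
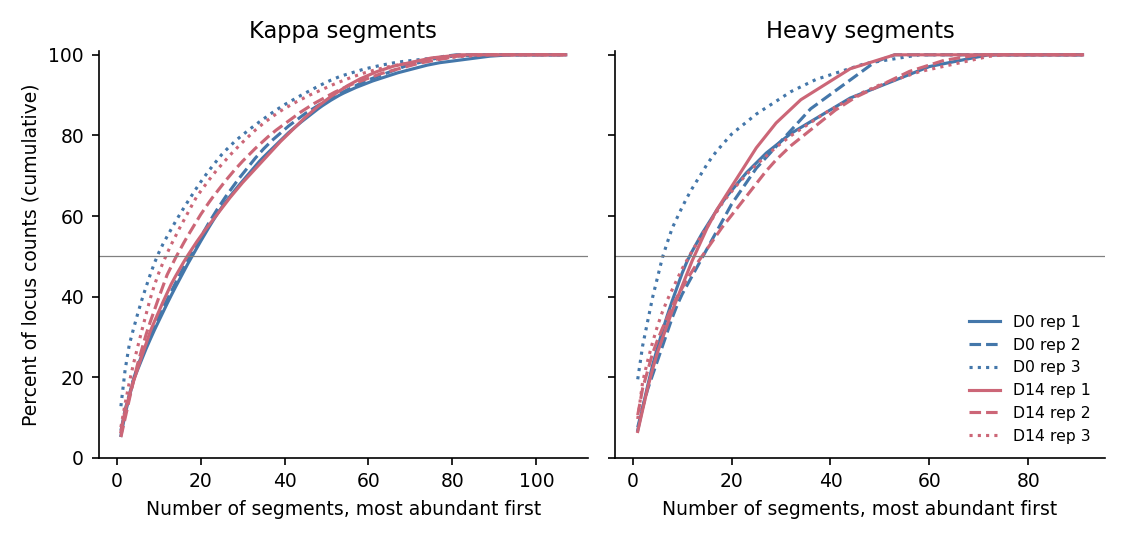
Cumulative share of segment counts (percent) against the rank of the segment, by library. D0 replicate 3 climbs fastest, with 10 kappa segments at 50% of the kappa counts against 12 to 18 in the other libraries.

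Light chain segments led the repertoire when libraries were weighted equally: Iglv1 with 5.52% of all segment counts, and the kappa segments Igkv1-110 (3.64%), Igkv1-117 (3.61%), Igkv3-7 (2.89%) and Igkv10-96 (2.82%). Ighv2-9 was the one heavy segment among the first 12, with 1.77%. Per kilobase of exon, the mean level was 19.3 CPM for Iglv1, 13.9 for Igkv3-7, 12.6 for Igkv12-89, 11.9 for Igkv1-117, 11.1 for Igkv1-110 and 9.94 for Igkv10-96. Across all 205 segments, the single most abundant one took 4.03%, 5.30% and 9.59% of counts on D0 against 5.50%, 4.24% and 8.80% at D14 (exact permutation p = 1, adjusted p = 1).

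Iglv1 had 80, 58 and 182 counts on D0 against 69, 72 and 244 on D14. Replicate 3 was the highest library on each day, and the days overlapped. Iglv1 was the leading lambda segment in all 6 libraries, with 51.4% to 74.6% of lambda segment counts. Iglv2 had 13, 18 and 139 counts on D0 against 25, 46 and 53 on D14, so its highest library was D0 replicate 3. Iglv3 had 37, 13 and 20 counts on D0 against 12, 18 and 26 on D14. Its identity to the nearest segment of its own locus, 51.7%, was the lowest found, in a locus with only 3 variable segments. Which variable segment was joined to which lambda constant region was not measured. Iglv1 counts were 0.684 to 1.03 times those of Iglc1 in all libraries. For Iglv2 and Iglc2 the same ratio was 0.0429, 0.0766 and 0.310 on D0 against 0.203, 0.309 and 0.349 at D14.

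**Figure D3:**
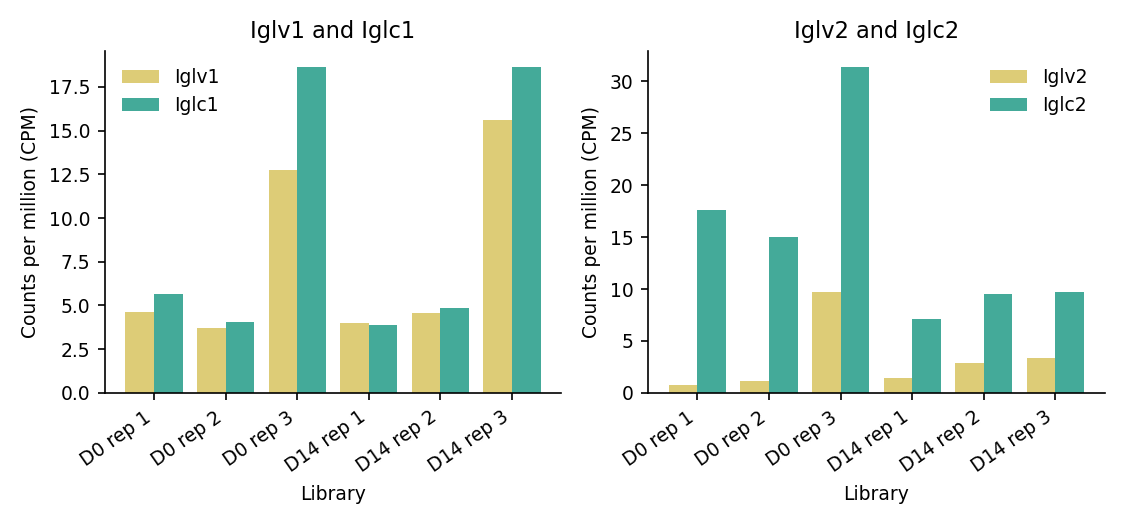
CPM of lambda variable segments and lambda constant regions in each library. Iglv1 and Iglc1 stand at similar heights in every library (count ratio 0.684 to 1.03), whereas Iglv2 is well below Iglc2 (0.0429 to 0.349).

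Igkv1-110 had 82, 52 and 89 counts on D0 against 46, 54 and 99 on D14, and led the kappa locus in D0 replicates 1 and 2 and D14 replicate 2. Igkv1-117 had 63, 40 and 160 counts on D0 against 57, 48 and 79 on D14, and led in D14 replicate 1. Igkv3-7 had 32, 10 and 229 counts on D0 against 21, 30 and 130 on D14, and led in D14 replicate 3 with 7.60% of kappa counts. These segments were present in every library, but the third replicate of each day held most of the Igkv3-7 counts. Ighv2-9 had 28, 17 and 42 counts on D0 against 9, 54 and 71 on D14 and led the heavy locus in D0 replicates 1 and 2 and D14 replicates 2 and 3. Ighv1-4, the heavy leader of D14 replicate 1, had 17, 4 and 5 counts on D0 against 17, 22 and 22 on D14. The remaining leading kappa segments also overlapped between the days. Igkv10-96 had 78, 29 and 78 counts on D0 against 34, 49 and 70 on D14, and Igkv1-135 had 63, 29 and 95 against 20, 33 and 57. Igkv4-59 had 32, 19 and 55 counts on D0 against 31, 38 and 68 on D14. Igkv1-88 had 18, 11 and 81 against 14, 45 and 91, and Igkv4-91 had 13, 26 and 100 against 12, 31 and 67. Among the leading 12 segments, all but Igkv12-89 passed the filter on low counts, and their log2 fold changes ran from -0.82 (Igkv1-135, SE 0.56, edgeR adjusted p = 0.530) to 0.59 (Ighv2-9, SE 0.72, edgeR adjusted p = 0.725).

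A few segments belonged mostly to 1 library. Of 96 segments with at least 30 counts, 4 had at least 60% of their summed CPM in one library, against a median of 31.5% for the highest library. Igkv12-89 had 3, 19 and 326 counts on D0 against 10, 5 and 6 on D14. It made up 12.8% of kappa counts in D0 replicate 3 (exact Clopper-Pearson 95% interval 11.5% to 14.2%, for counting error only). Its nearest segment, Igkv12-46, had 26, 13 and 33 counts on D0 against 7, 22 and 13 on D14, which is 2.31 CPM in D0 replicate 3 and at most 1.51 CPM elsewhere. Ighv1-73 had 2, 11 and 98 counts on D0 against 0, 5 and 9 on D14, and made up 19.5% of heavy counts in D0 replicate 3 (95% interval 16.1% to 23.2%). Its nearest segment, Ighv1-63, had 3, 0 and 19 counts on D0 against 0, 5 and 7 on D14, so it was also highest in D0 replicate 3, at 1.33 CPM against at most 0.448 CPM elsewhere. Whether reads were shared between Ighv1-73 and Ighv1-63 was not tested. Igkv9-123 had 1, 0 and 49 counts on D0 against 0 in each D14 library. Ighv1-86, annotated as a pseudogene, had 2, 3 and 0 counts on D0 against 0, 0 and 68 on D14. Its nearest segment, Ighv1-26, had 0, 4 and 3 counts on D0 against 9, 5 and 3 on D14. In D0 replicate 3, Jchain, which links IgM and IgA subunits and marks plasma cells, stood at 227 CPM against 9.69 to 62.1 CPM in the other libraries. The plasma cell markers as a list did not move one way in that library: it was the highest library for 4 of the 9 (Jchain, Sdc1, Mzb1 and Derl3) and the lowest for 2 (Xbp1, at 84.5 CPM against 96.4 to 115 CPM elsewhere, and Prdm1). Their part in the segment values was not tested.

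**Figure D4:**
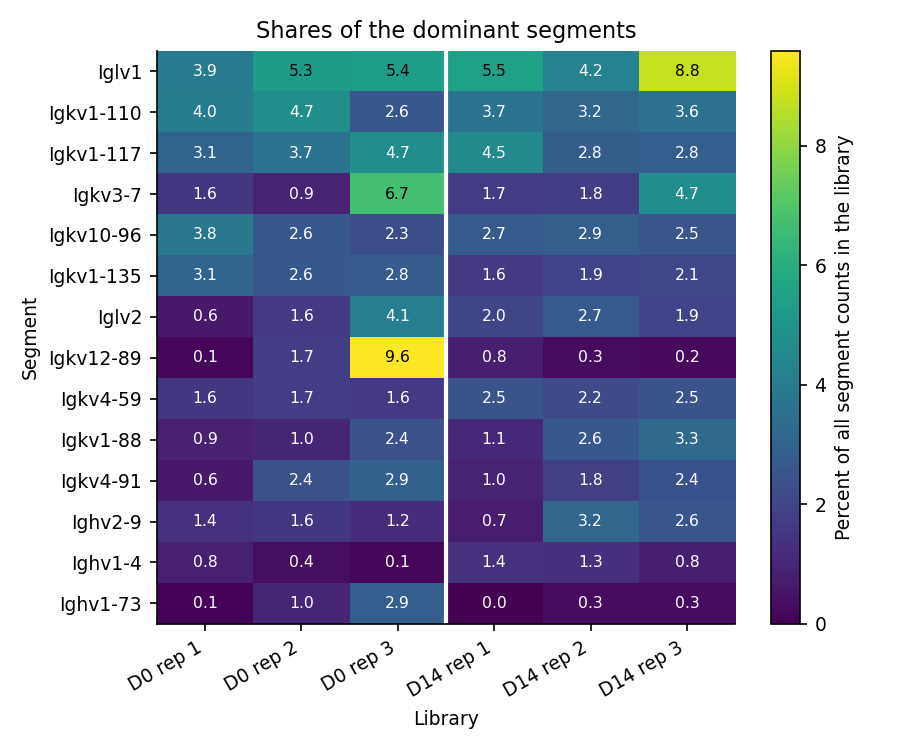
Share of all segment counts (percent) taken by the leading segments in each library. Iglv1 is prominent in all libraries, at 8.80% in D14 replicate 3, while Igkv12-89 reaches 9.59% in D0 replicate 3 alone.

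Grouped by family, Ighv1, the largest family with 43 segments, took 32.1% to 41.96% of heavy variable counts, Ighv2 11.8% to 23.0% and Ighv5 7.41% to 15.3%. Igkv4 took 14.3% to 20.7% of kappa variable counts and Igkv1 16.0% to 19.9%. Igkv12, the family of Igkv12-89, took 17.0% in D0 replicate 3 and 3.94% to 8.15% elsewhere. The 43 heavy segments nearer to the joining cluster held 62.1% to 69.9% of heavy variable counts, against 30.1% to 37.9% for the 44 farther ones. For kappa, the 51 nearer segments held 41.5% to 52.3%.

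Repertoires were also compared between libraries. The overlap of 2 libraries was the sum of the smaller share of each segment. For kappa it was 62.1% to 76.4% within D0, 69.3% to 79.4% within D14 and 60.9% to 73.2% between days. For heavy it was 55.9% to 62.4% within D0, 60.3% to 71.0% within D14 and 47.7% to 73.3% between days. No test was made of these overlaps.

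No segment passed the test between the days. Of the 205 segments, 60 had enough counts to be tested (13 heavy, 44 kappa and 3 lambda, all variable), and edgeR's quasi-likelihood test with Benjamini-Hochberg adjustment over 17686 genes called 0 of them, beside 0.0339% of all genes tested (0.017% higher and 0.017% lower at D14). At an unadjusted p under 0.05, edgeR found 1 higher at D14, where the share over all genes was 5.48%, and 5 lower, where it was 7.09%. DESeq2 and limma-voom also called 0 segments, beside 1.55% and 0.0339% of all genes; at an unadjusted p under 0.05 DESeq2 found 0 higher (6.62% of all genes) and 5 lower (6.99%), and limma-voom 2 higher (5.86%) and 4 lower (6.55%). The median log2 fold change was -0.19 over the 60 segments and -0.03 over all genes, and without D0 replicate 3 the segments' median was 0.17. By locus it was 0.19 for heavy segments (11 of 13 above 0), -0.32 for kappa (12 of 44 above 0) and -0.33 for lambda (1 of 3 above 0). Of all genes tested, 53.1% were below 0. Passing the filter depended on the counts themselves, so these numbers of segments and medians describe the tested segments and not the 205.

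**Figure D5:**
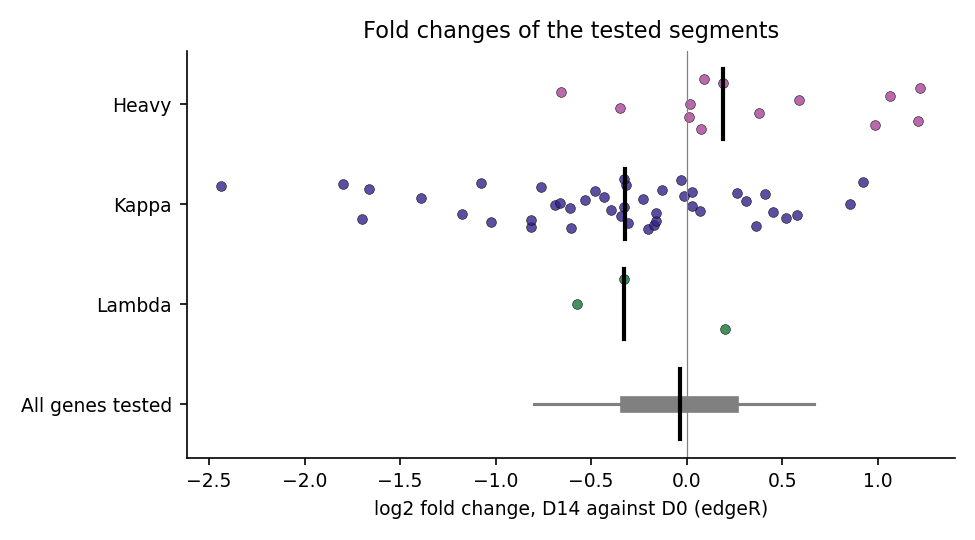
Log2 fold change, D14 against D0, of the tested segments by locus. Points are segments and the black bar their median; the grey box spans the 25th to 75th and the line the 5th to 95th percentile of all genes tested. Heavy points centre at 0.19 and kappa points at -0.32, with the widest spread in kappa.

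The segments of lowest p were chosen after their values were seen. Igkv6-25 had 24, 10 and 44 counts on D0 against 7, 3 and 5 on D14, with a log2 fold change of -2.43 (SE 0.66) and an edgeR adjusted p of 0.347. Its ranges did not overlap. Igkv4-86 had 19, 14 and 28 counts on D0 against 6, 11 and 7 on D14, and Igkv8-19 had 18, 10 and 41 on D0 against 11, 8 and 2 on D14. Igkv13-84 had 13, 14 and 12 counts on D0 against 1, 4 and 7 on D14, and Igkv6-20 had 25, 16 and 19 on D0 against 2, 12 and 5 at D14. Ighv5-17 had 7, 5 and 7 counts on D0 against 12, 15 and 19 on D14, a log2 fold change of 1.22 (SE 0.42) with an edgeR adjusted p of 0.364. Among the tested segments 1 had CPM ranges wholly higher at D14 and 5 wholly lower, where the shares over all genes were 10.9% and 10.7%. For Igkv8-19 the ranges parted only by 0.6376 CPM in D0 replicate 2 against 0.6362 CPM in D14 replicate 1. Ighv5-17 passed the filter on low counts through its D14 libraries, and Igkv6-25 and Igkv13-84 through their D0 libraries. Such ranges and p-values are therefore not independent of the filter.

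Joining segments gave 43, 24 and 26 counts on D0 against 17, 16 and 21 on D14, and none passed the filter on low counts. Iglj2, printed above, had the most, 11, 8 and 10 counts on D0 against 1, 1 and 3 on D14, and its ranges did not overlap. Igkj5 had 6, 3 and 3 counts on D0 against 2 in each D14 library, Igkj2 4, 2 and 3 on D0 against 3 in each, and Igkj3 4, 3 and 3 on D0 against 2, 2 and 3 at D14. Ighj4 had 3, 3 and 2 counts on D0 against 2, 1 and 2 on D14. Igkj1, Igkj4, Ighj1, Ighj2, Ighj3, Iglj1, Iglj3 and Iglj3p had at most 4 counts in a library. Except for Iglj2 on D0, the joining segment counts are at or near the limit of 3 counts.

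Constant regions, the partners of the segments, were more abundant and likewise had 0 of 10 tested genes past the edgeR threshold (0.0339% of all genes). At an edgeR unadjusted p under 0.05, 1 was higher (5.48% of all genes) and 3 were lower (7.09%). Segment counts were 0.255, 0.234 and 0.220 times the constant region counts on D0 against 0.252, 0.217 and 0.265 times at D14 (exact permutation p = 0.8, adjusted p = 1). Ighm, the IgM constant region, had 3029, 1915 and 7396 counts on D0 against 1391, 3685 and 5042 on D14. It made up 42.6% to 86.3% of heavy constant counts, highest in D0 replicate 3. Igha, the IgA constant region of mucosal antibody, had 1111, 451 and 615 counts on D0 against 1408, 842 and 1139 on D14, a log2 fold change of 0.61 (SE 0.30, edgeR adjusted p = 0.430). Ighd, the IgD constant region of naive B cells, had 1240, 480 and 453 counts on D0 against 320, 458 and 373 on D14. Ighg2b, an IgG constant region, had 46, 23 and 15 counts on D0 against 82, 32 and 97 on D14 (log2 fold change 1.31, SE 0.50, edgeR adjusted p = 0.377). The other IgG regions in the count table were low: Ighg1 had 16 to 32 counts, Ighg2c 0 to 18 and Ighg3 24 to 67 in a library. Ighe, the IgE region, had 0 to 6. Ighg2a, also on the list, had no row in the count table, so its level is unknown and the heavy constant counts leave it out. Whether its reads were counted under another IgG region was not tested. Igkc had 1932, 1345 and 5960 counts on D0 against 1431, 2396 and 3238 on D14. Iglc2 had 303, 235 and 448 counts on D0 against 123, 149 and 152 on D14, ranges that did not overlap, with a log2 fold change of -1.28 (SE 0.31, edgeR adjusted p = 0.340). Iglc3, 98% identical to Iglc2 over its best 200-base stretch, had 153, 106 and 181 counts on D0 against 83, 84 and 63 on D14. Iglc1 had 98, 64 and 266 counts on D0 against 67, 76 and 291 on D14, and Iglc4 had at most 2. DESeq2 gave Iglc2 an adjusted p of 0.0191.

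The B cell marker list had 8 tested genes, and 0 passed the edgeR threshold (0.0339% of all genes). However, 8 of 8 were below 0, beside 53.1% of all genes. An edgeR unadjusted p under 0.05 was found for 6, all lower at D14, beside 7.09% of all genes. The median log2 fold change was -0.88, against -0.03 over all genes. The list's summed level was 167 to 285 CPM on D0 against 105 to 154 CPM at D14, ranges that did not overlap. Cd79a, a signalling chain of the B cell receptor, had 893, 436 and 761 counts on D0 against 368, 325 and 358 on D14 (log2 fold change -1.04, SE 0.25, edgeR adjusted p = 0.347; DESeq2 adjusted p = 0.0299). The part of these markers in the segment values was not tested.

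In each of the other lists 0 genes passed the edgeR threshold (0.0339% of all genes). Plasma cell markers summed to 435 to 701 CPM on D0 against 425 to 462 at D14. Of these, 8 were tested, with a median log2 fold change of -0.31 and 0 with an edgeR unadjusted p under 0.05. Sdc1 was the largest part of the sum in every library, at 213 to 348 CPM, and Xbp1 had 84.5 to 115 CPM. Mzb1 had at most 13.5 CPM, Derl3 1.96 and Tnfrsf17 1.22. Which cells expressed these markers was not tested. Germinal centre markers summed to 105 to 117 CPM on D0 against 69.9 to 96.2 at D14. At an edgeR unadjusted p under 0.05, 1 of 3 tested genes was lower, beside 7.09% of all genes. Rearrangement and precursor B cell genes summed to 8.10 to 30.1 CPM on D0 against 8.44 to 28.0 at D14. Rag1, a subunit of the recombinase, had 220, 4 and 5 counts on D0 against 10, 43 and 201 on D14. Dntt of the same list had 92, 4 and 1 against 9, 9 and 83, and Rag2 18, 1 and 0 against 0, 3 and 10. Igll1 had 4, 4 and 0 against 1, 2 and 4, and Vpreb1 8, 5 and 8 against 6, 5 and 1. Vpreb2 had 2, 0 and 0 against 0 in each D14 library, and Vpreb3 174, 109 and 146 against 120, 176 and 139. The cells of origin of these counts were not tested. Octamer factors and their coactivator, which act on immunoglobulin promoters, summed to 52.1 to 88.2 CPM on D0 against 59.0 to 74.5 at D14 (median log2 fold change -0.42 over 3 tested genes). B cell survival and homing signals summed to 402 to 601 CPM on D0 against 489 to 522 at D14 (7 of 14 tested genes above 0, median -0.06). T cell markers summed to 86.7 to 140 CPM on D0 against 79.8 to 88.1 at D14. Of 6 tested genes, 2 were lower at an edgeR unadjusted p under 0.05, beside 7.09% of all genes. Lymphoid stroma markers had a median log2 fold change of -0.37, lung epithelium markers of -0.20 and red cell markers of -0.04.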

How the data were processed

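Lungs were profiled by bulk RNA sequencing, 3 libraries at D0 and 3 at D14. TRIzol extraction of total RNA and an NEB library kit were used, per the labels' protocols. CASAVA 1.8, HISAT2 2.1.0, StringTie 1.3.4b, edgeR and the build GRCm38 are named, with no role or order, per the submitters' processing notes; which tool counted, and whether by strand, is not given in the sources used here. The authors deposited estimated counts per gene symbol, unscaled for depth; the values used were whole. Of 29757 lines, 2 were empty and 2 held values that are not whole, and these were left out.

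The gene test was edgeR 4.0.16 (R 4.3.3; TMM, filterByExpr, two-sided robust quasi-likelihood test) on all genes and libraries with no covariate, Benjamini-Hochberg adjusted with a threshold of 0.05. CPM values were TMM-scaled. Sums, shares and effective numbers were compared by exact permutation tests over libraries, adjusted over 11 values. Positions and sequences came from GENCODE for GRCm38. On simulated data for D14 against D0 with 17403 genes, the share of altered genes recovered was 26.8% at a log2 change of 1 and 75.3% at 2, and 8 of 107 calls were false.

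The members and the 11 gene lists were chosen with earlier results of these data known. By rule, the genes named were segments past the threshold (there were 0), the 12 segments of highest mean share, the leading segment of each locus in each library, the joining segments, the constant regions and Jchain, and the leading genes of each list. Segments with an unadjusted p under 0.05, those concentrated in 1 library and the nearest segments in sequence were added after their values were seen. Some genes selected by this rule are not reported here. Alternatives were DESeq2 1.42.0, limma-voom (limma 3.58.1), other scalings and filters, the replicate block and each library left out in turn.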

Additional observations from a re-analysis of the deposited data

How the results depend on the processing

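The result that 0 segments passed the edgeR threshold held under every alternative run. The directions of most sums, shares and effective numbers did not hold. Leaving out each library in turn gave differences, D14 minus D0, of -0.59 to 0.30 for the sum of all segments, -0.050 to 0.77 for the sum of heavy segments, -0.78 to 0.15 for the sum of kappa segments, -0.56 to 0.51 for the sum of lambda segments, -5.27 to 5.82 for the effective number of kappa segments, -3.62 to 6.70 for the effective number of heavy segments, -1.43 to 1.52 for the share of the most abundant segment, -0.013 to 0.13 for the ratio of variable segment sum to constant region sum, and -0.64 to 0.17 for the median log2 fold change of tested segments. The lambda share, heavy share and heavy segment to constant region ratio kept their direction when a library was left out. The number of kappa segments reversed to -0.28 when rarefied to equal counts, and the lambda share to -2.38 percentage points when counts were divided by exonic length, which by construction gives the joining segments of 38 bases more weight. With no low count filter the median log2 fold change of the segments reversed to 0.011. DESeq2 called 4 of 48 tested list genes (1.55% of all genes), among them Iglc2, Cd79a and S1pr2, where edgeR called 0. Shannon and rarefied forms gave no value for the share of the most abundant segment.

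Of 57 named genes with a fold change, 17 changed sign without D0 replicate 3, and 3 to 7 without any other single library. Leave-one-out log2 fold changes of the genes that reversed ran from -0.71 to 0.95 for Iglv1, -0.64 to 0.041 for Igkv1-110, -0.96 to 0.29 for Igkv1-117, -1.97 to 1.59 for Igkv3-7, -1.07 to 1.44 for Iglv2, -0.12 to 0.89 for Igkv4-59, -0.42 to 1.84 for Igkv1-88, -1.22 to 0.94 for Igkv4-91, -0.79 to 0.51 for Ighm, -0.46 to 0.35 for Ighg3, -0.84 to 0.58 for Igkc, -1.11 to 0.89 for Iglc1, -0.084 to 0.13 for Xbp1, -1.44 to 4.13 for Rag1, -0.20 to 0.15 for Vpreb3, -0.016 to 0.59 for Pou2f1, -0.12 to 0.63 for Cxcl12, -0.50 to 0.12 for Lck, -0.93 to 0.23 for Hbb-bt, -0.41 to 0.98 for Hba-a1, -0.91 to 1.21 for Cxcl13 and -1.90 to 1.70 for Jchain. By setting, reversed log2 fold changes were 0.030 for Igkv3-7, 0.30 for Iglv2 and 0.081 for Jchain with limma-voom, 0.16 for Iglv2 and 0.065 for Jchain with the replicate block, -0.044 for Xbp1 and -0.020 for Hba-a1 with no scaling factors, and for Vpreb3 0.0011 with RLE size factors, 0.00075 with DESeq2 and 0.0021 without the low count filter. The cause was not tested. With the replicate number as a block, edgeR called 0 genes in all, against 6 without it, and 0 segments. Same-numbered libraries had deviation correlations of 0.119, -0.0548 and -0.0972, so the numbers were not taken to pair the libraries. None of the 13 joining segments, and only 13 of the 91 heavy segments, had enough counts to be tested. Which differences could be detected in the rest at this depth was not computed.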
